A study of Mus musculus with 2 samples.

Results

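The regions described here are the intergenic FLAG-HLF binding peaks that lie near, but not at, protein-coding genes. A peak of the deposited list was taken if its centre lay outside every coding gene and over 1000 and at most 20000 bases from the nearest end (start or stop) of one. This rule took 645 of 3153 peaks, or 20.5%. It uses position alone, and the list gives no peak height, enrichment, significance or read count, so the depth behind the peaks is unknown, and a limit of detection cannot be stated.

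The study profiled HLF binding in mouse Lin-Sca-1+c-Kit+ (LSK) cells, the gate that holds blood stem cells and multipotent progenitors. Wild-type cells, 80000 of them, received a retrovirus, either pMX-GFP as control or pMX-3xFLAG-Hlf/Hlf-IRES-GFP. Both groups were kept for 5 days in OP9 medium with SCF (50 ng/ml), IL-7 (10 ng/ml), Flt3 ligand (10 ng/ml) and IL-3 (5 ng/ml), and chromatin was precipitated with an anti-FLAG antibody. Each group had 1 library, and only the FLAG-HLF peak list was analysed, so the groups were not compared and no value has a replicate check. HLF was expressed here from a retrovirus, not from its own gene, and the surface markers of the cultured cells were not analysed. The labels used here give no age or sex of the mice. All tests below run over peaks or stretches of genome of this 1 list, which are not replicates of the experiment, and every interval covers counting error only.

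HLF, short for hepatic leukemia factor, belongs with DBP and TEF to the PAR bZIP transcription factors. It is found in blood stem cells and falls away as they commit to a lineage. PAR bZIP proteins bind as dimers to a palindromic site, TTACGTAA, and C/EBP factors, which direct myeloid development, bind a related palindrome, TTGCGCAA. Intergenic DNA beside a gene often holds enhancers, to which such factors bind apart from the promoter itself.

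Sequence was at hand for few of these peaks, since the RefSeq promoter table (GRCm38.p6) covers only 250 bases before to 50 bases after gene starts, and these peaks lie away from coding starts by rule. Of the 645 peaks, 6 overlapped a window of that table, and the 6 windows all belonged to lncRNA genes. The 4 windows with the longest overlap are shown because they are the peak DNA that can be read. Each is the part of the window inside the peak, written 5′ to 3′ on the strand of the lncRNA, with capitals marking any of the words searched on both strands. The first is chr2:116899902-116900201 (plus strand), the next chr10:89741144-89741379 (minus strand), then chr11:83291449-83291656 (plus) and chr9:96896856-96897046 (plus), all in mm10.
D330050G23Rik: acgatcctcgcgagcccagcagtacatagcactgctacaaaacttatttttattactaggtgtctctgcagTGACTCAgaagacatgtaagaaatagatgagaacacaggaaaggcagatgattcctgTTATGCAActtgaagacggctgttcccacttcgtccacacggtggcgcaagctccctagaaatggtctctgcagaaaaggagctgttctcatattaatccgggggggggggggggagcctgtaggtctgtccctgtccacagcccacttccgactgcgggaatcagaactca
Gm30963: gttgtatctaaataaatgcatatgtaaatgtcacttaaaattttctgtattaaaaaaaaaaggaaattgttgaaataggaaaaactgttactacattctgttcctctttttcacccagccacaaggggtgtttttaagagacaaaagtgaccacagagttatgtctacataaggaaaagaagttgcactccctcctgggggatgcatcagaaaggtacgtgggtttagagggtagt
AA465934: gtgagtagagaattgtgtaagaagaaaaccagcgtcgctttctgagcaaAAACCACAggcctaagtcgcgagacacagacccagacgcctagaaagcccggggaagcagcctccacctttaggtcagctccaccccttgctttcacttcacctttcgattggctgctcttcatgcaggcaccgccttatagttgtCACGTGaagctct
Gm51657: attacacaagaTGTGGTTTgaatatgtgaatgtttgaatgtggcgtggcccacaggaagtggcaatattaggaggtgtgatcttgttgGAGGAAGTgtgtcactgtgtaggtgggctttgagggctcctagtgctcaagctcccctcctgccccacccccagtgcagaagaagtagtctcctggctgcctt

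The peak at D330050G23Rik covered the whole 300-base window and held TTATGCAA, the reverse complement of TTGCATAA. This word combines an arm of the C/EBP palindrome with an arm of the PAR bZIP word TTACATAA, and its middle lay 9 bases from the peak centre. The same window held the AP-1 word TGACTCA at 67 bases from the centre. The peak at Gm51657 held the RUNX word TGTGGTTT (25 bases from the centre) and the PU.1 word GAGGAAGT (102 bases). The peak at AA465934 held the RUNX word as its reverse complement AAACCACA (46 bases from the centre) and the E-box CACGTG (191 bases). The window part inside the Gm30963 peak held none of the words. None of the 6 whole windows held a PAR bZIP word (TTACGTAA or TTACATAA), which in 6 windows allows a share of up to 45.9% (upper bound of the 95% exact Clopper-Pearson interval). Over the whole table, 1.06% of 32585 windows held such a word. Among the 227 windows that overlapped any peak of the list, 15 did (6.61%, 3.75 to 10.7%), and 41 (18.1%, 13.3 to 23.7%) held a C/EBP or mixed word (TTGCGCAA, TTGCATAA, TTACGCAA or TGATGCAA), against 1.97% of all windows. Of the 6 windows of this class, 1 held a C/EBP or mixed word (16.7%, 0.421 to 64.1%). The AP-1 word was in 1 of the 6 windows, the PU.1 word in 1, the RUNX word in 2 and an E-box (CACGTG or CAGCTG) in 1. Over all windows the shares were 5.23%, 3.22%, 1.79% and 22.4%, in the same order. The other words searched were TGACGTCA, CCGGAAGT, AGATAAGA, TGATTTAT and the rearranged palindromes AATCGATT, ATTCGAAT and TATCGATA. A word is a description of the letters and was not tested as a binding site, and the peak DNA outside the windows was not read.

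Intergenic DNA at 1 to 20 kb from coding genes was bound more densely than the genome as a whole. The stretches that meet the rule, called territory below, made up 358.7 Mb, or 13.8% of the 2600.1 Mb between the first and last coding gene of each chromosome. They held 20.5% of the peaks (95% exact interval 19.1 to 21.9%), 1.48 times their share (two-sided exact binomial p = 1.20e-24, adjusted p = 7.20e-24 over 6 tests of position, spacing and file order). The density was 1.80 peaks per Mb (exact Poisson interval 1.66 to 1.94), against 1.21 over the whole span. Density fell with distance among the intergenic classes. It was 4.76 per Mb within 1 kb of a gene end (167 peaks), 1.003 at 20 to 100 kb (440 peaks) and 0.215 beyond 100 kb (159 peaks). Both steps around the 1 to 20 kb class were larger than counting error (exact binomial p = 3.30e-24 against the class within 1 kb and p = 1.64e-21 against 20 to 100 kb). Inside coding genes, at the same distances from an end, the density was 2.14 per Mb (865 peaks), so intergenic peaks were 42.7% (40.2 to 45.3%) of all peaks at these distances where territory would give 47.04% (exact binomial p = 0.000799). With noncoding genes added to the gene set, which changes both the gene ends and the intergenic territory, the ratio was 1.03 and did not pass (exact binomial p = 0.368). Every base of the span was counted, including any where reads cannot be placed. Neither such bases nor open chromatin of these cells were analysed here, and their part in these densities was not tested.

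**Figure D1:**
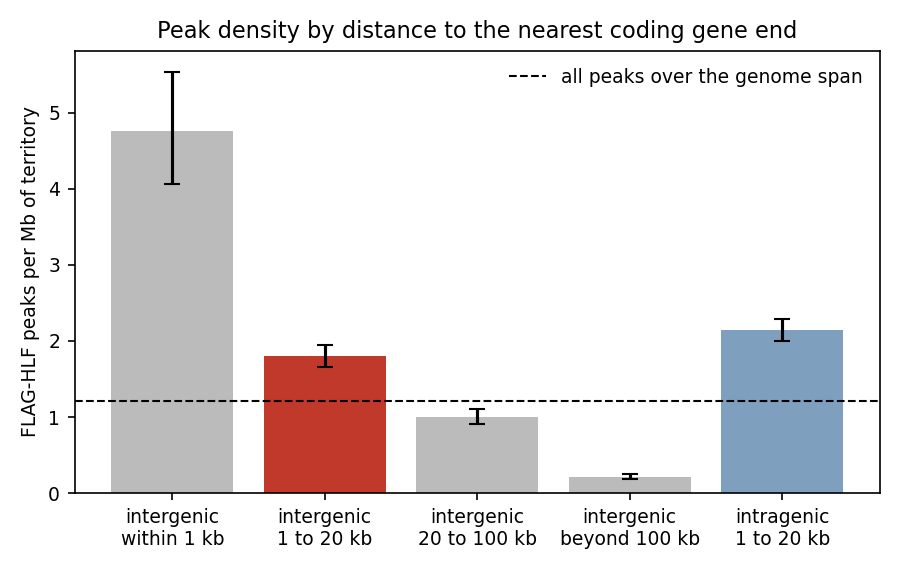
Peaks per Mb of territory (vertical axis) for 4 intergenic classes by distance to the nearest coding gene end and for intragenic peaks at 1 to 20 kb; bars start at 0, error bars are 95% exact Poisson intervals, and the dashed line is the density of all peaks, 1.21 per Mb. The intergenic 1 to 20 kb class (red) stands at 1.80 per Mb, between 4.76 within 1 kb and 1.003 at 20 to 100 kb.

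The same decline with distance ran through the class itself. The 645 distances ranged from 1.005 to 19.93 kb, with a median of 6.89 kb and quartiles of 3.29 and 11.96 kb. At 1 to 2 kb there were 76 peaks, or 2.41 per Mb (1.90 to 3.02). At 2 to 5 kb there were 176 (2.18 per Mb), at 5 to 10 kb 177 (1.71) and at 10 to 20 kb 216 (1.51, 1.31 to 1.72). Peaks at 1 to 5 kb were 39.1% (35.3 to 43.0%) of the class against 31.3% of its territory (exact binomial p = 3.02e-05, adjusted p = 9.08e-05 over the 6 tests). In intergenic gaps longer than 40 kb, where every distance up to 20 kb has equal territory, the share was 25.3% against 21.05% and did not pass (exact binomial p = 0.0608). Density also differed with the length of the gap between neighbouring coding genes. Gap length is tied to distance, since in a gap of at most 20 kb no base lies over 10 kb from a gene end. The gap classes were not separated from distance. In gaps of at most 20 kb the density was 2.61 per Mb (143 peaks, 1.45 times their territory, exact binomial adjusted p = 7.82e-06 over 4 gap classes), and in gaps over 200 kb it was 1.04 (61 peaks, ratio 0.581, exact binomial adjusted p = 3.26e-06). The median gap around a peak was 42.3 kb, and the median over territory 52.8 kb.

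At the limits of the rule, the nearest peaks taken were 1005 bases from Macir, 1021 from Abhd5 and 1069 from Dixdc1, and those left out were 988 bases from S100a13, 975 from Dnajc15 and 973 from Spred1. At the far limit, peaks at 19927 bases from Arhgap40, 19837 from Mrps33 and 19763 from Atp8b4 were taken, and peaks at 20011 bases from Chd7, 20078 from Actr2 and 20103 from Klk13 were not.

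Peaks lay more often on the start side of their nearest gene than on the stop side. Strand came from the promoter table and was used for 509 of the 645 peaks. Of these, 314 were nearest to a gene start and 195 to a gene stop, that is 2.05 and 1.48 peaks per Mb. The start side held 61.7% (57.3 to 65.9%) against 53.7% of the territory with a strand (exact binomial p = 0.000311, adjusted p = 0.000621 over the 6 tests). The contrast was widest closest to the gene. At 1 to 2 kb there were 40 peaks upstream of starts and 16 downstream of stops, or 3.10 and 1.31 per Mb, a 2.37-fold difference (exact binomial adjusted p = 0.0119 over 4 distance classes). At 2 to 5, 5 to 10 and 10 to 20 kb the start side was 1.38, 1.35 and 1.24 times as dense, and these differences did not pass (exact binomial adjusted p from 0.126 to 0.187). Whether the contrast itself changed with distance was not tested. In the last 1577 lines of the file the start share was 58.9% and did not pass (exact binomial p = 0.111). The start side is not particular to this class. Of 700 intragenic peaks at the same distances with a strand, 465 (66.4%) were nearest to a start, against 49.9% of their territory (exact binomial p = 1.24e-18).

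**Figure D2:**
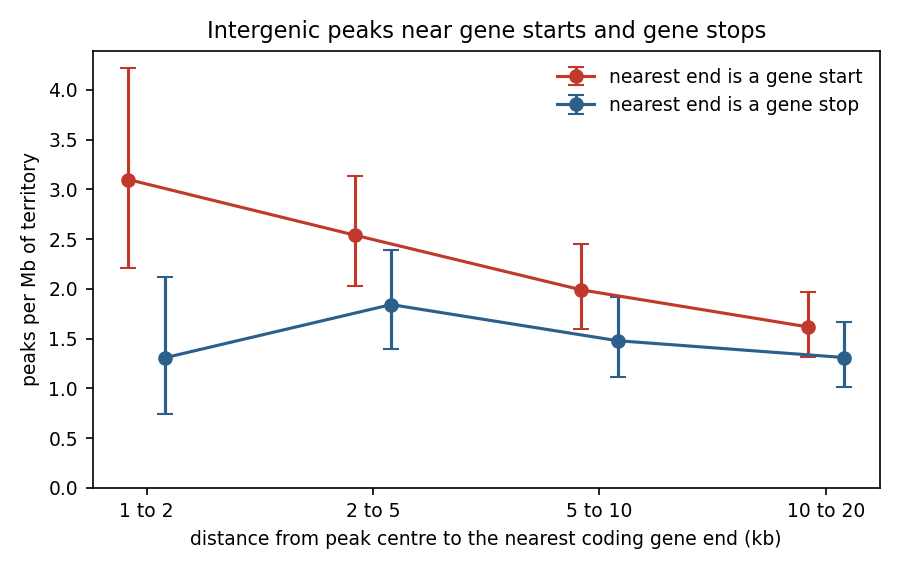
Peaks per Mb of territory (vertical axis) in 4 classes of distance to the nearest coding gene end (horizontal axis, kb), for peaks nearest to a gene start (red) and to a gene stop (blue); points are densities and error bars 95% exact Poisson intervals. At 1 to 2 kb the start side reaches 3.10 per Mb and the stop side 1.31, and at 10 to 20 kb they are 1.62 and 1.31.

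Density differed with the arrangement of the genes on either side. Both flanking genes had a strand at 424 peaks. Between divergent genes, whose starts face each other, lay 152 peaks (2.46 per Mb), 35.8% (31.3 to 40.6%) of these peaks against 25.4% of the territory (exact binomial adjusted p = 5.82e-06 over 3 arrangements). Between convergent genes, whose stops face each other, lay 51 (1.19 per Mb), 12.03% against 17.6% (exact binomial adjusted p = 0.00322). Tandem gaps, with 1 start and 1 stop, held 221 (1.60 per Mb), 52.1% against 57.0% (exact binomial adjusted p = 0.0445). Within tandem gaps alone the start side held 52.0% of the peaks against 50% of the territory, which did not pass (exact binomial p = 0.591). The divergent share kept its excess in gaps longer than 40 kb (39.1% against 28.1%, exact binomial p = 0.000335) and among peaks over 5 kb from the gene (34.1% against 26.4%, exact binomial p = 0.0061).

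**Figure D3:**
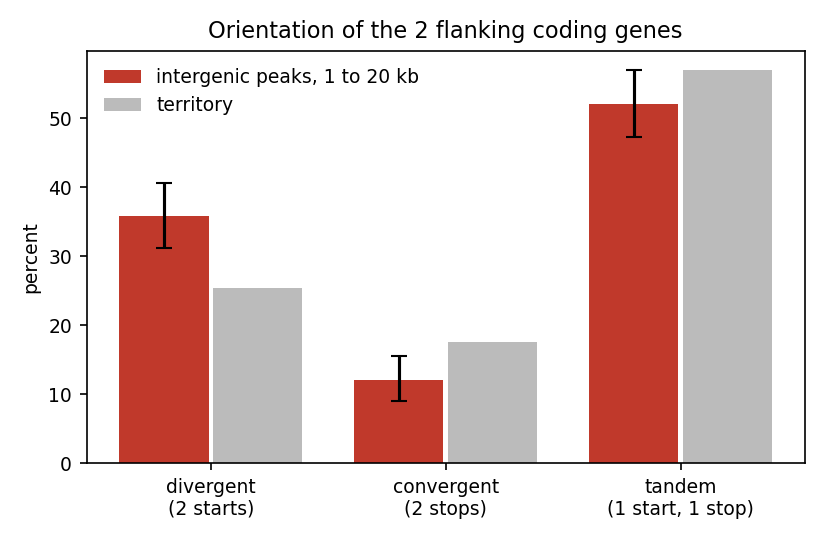
Percent of intergenic peaks at 1 to 20 kb (red, with 95% exact Clopper-Pearson intervals) and percent of the same territory (grey) between divergent, convergent and tandem coding genes. Peaks exceed territory between divergent genes (35.8% against 25.4%) and fall short of it between convergent genes (12.03% against 17.6%).

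Some of these peaks lay in noncoding genes, which the rule ignores. Of the 645 centres, 103 (16.0%, 13.2 to 19.03%) were inside a noncoding RefSeq gene against 13.4% of the territory, which did not pass (exact binomial p = 0.0564, adjusted p = 0.0846 over the 6 tests). The direction turned without noncoding genes of predicted names (1.24% against 1.74%, exact binomial p = 0.449) and in the last 1577 lines of the file (12.7% against 13.4%, p = 0.806), while in the first 1576 lines the share passed (19.2%, exact binomial p = 0.0032). By kind, chosen after the data were seen, 96 were inside a lncRNA gene, 14.9% against 11.05% (exact binomial adjusted p = 0.00581 over 5 noncoding classes), and 6 inside a pseudogene, 0.930% against 1.75% (adjusted p = 0.131). Without lncRNA genes of predicted names the lncRNA share was 1.085% against 0.853%, which did not pass (exact binomial p = 0.514). Of the 323 peaks of the class in the first 1576 lines of the file, 17.6% were in a lncRNA gene. Of the 322 in the remaining lines 12.1% were, which did not pass against territory (exact binomial p = 0.534), and these shares did not differ from each other past the threshold (Fisher's exact p = 0.0596). Starts and stops were taken only for the 9520 of 12697 lncRNA genes with a strand in the promoter table. Within 1 kb of such a lncRNA start lay 17 peaks, 2.56 times the territory (exact binomial adjusted p = 0.00252). Within 1 kb of such a lncRNA stop lay 19, 2.10 times (exact binomial adjusted p = 0.00581). Besides the windows shown above, the peaks at lncRNA starts included one inside Snhg12, a small nucleolar RNA host gene, one in Gm52567 upstream of Plcg1 (1.39 kb), which encodes a phospholipase of receptor signalling, and one 16.4 kb downstream of Cd34. There were 4 noncoding genes with 2 peaks each. They were Gm39896 beside Lmo2, 1500015L24Rik beside Anxa1, Gm34894 beside Gm5785, and 4930469K13Rik, which lies between Lcp2 and Kcnip1. These names in this paragraph were chosen after their values were seen.

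Peaks were assigned by the nearest gene end, and 609 of 21631 coding genes (2.82%) received at least 1. Among 261 genes of 10 lists (blood, cytokine, clock, cell death, cell cycle and neuronal genes), 26 did (9.96%). The list genes held 31 peaks at a density of 5.93 per Mb of their territory, against 1.80 for all coding genes. The lists were written with earlier results of these peaks known, so these counts are a description. Their median distance was 6.30 kb, against 6.89 kb for the whole class. Cytokine and interferon signalling had the most, 10 of 40 genes (25%) and 13.8 peaks per Mb. Granulocyte and monocyte genes had 5 of 30 (16.7%) and 9.97 per Mb, and stem and multipotent progenitor genes 6 of 40 (15%) and 7.67 per Mb. B lymphoid genes had 2 of 28 (7.14%) and 3.56 per Mb, and cell death genes 1 of 19 (5.26%) with 2 peaks, or 7.67 per Mb. T and innate lymphoid genes had 1 of 22 (4.5%) and 2.15 per Mb, and clock and PAR bZIP genes 1 of 24 (4.17%) and 2.28 per Mb. Erythroid and megakaryocyte (18 genes), cell cycle (21) and neuronal genes (20) had 0. Lists this short can have 0 at the share of all coding genes (2.82%), so these counts do not set them apart.

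**Figure D4:**
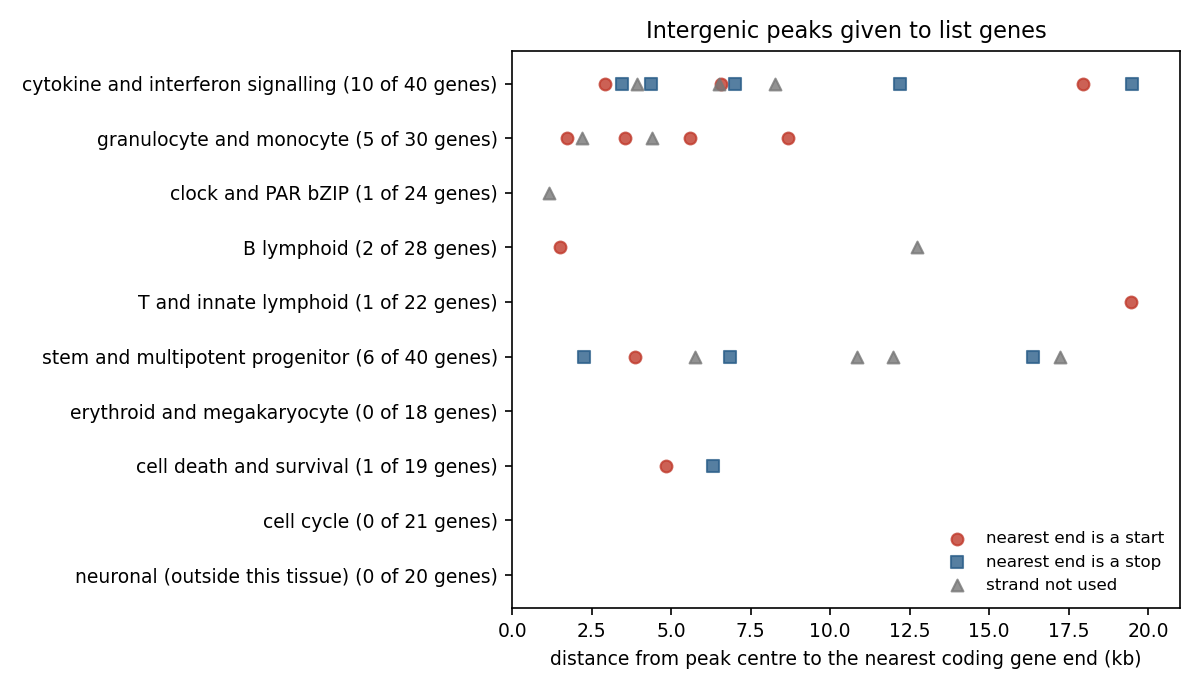
Distance from the peak centre to the nearest coding gene end (horizontal axis, kb) for every intergenic peak at 1 to 20 kb given to a list gene; rows are the 10 lists with the number of genes that received a peak, circles are peaks nearest to a start, squares peaks nearest to a stop and triangles peaks whose gene has no strand here. The 11 peaks of the cytokine and interferon list spread from 2.91 to 19.5 kb, while the 6 of the granulocyte and monocyte list all lie within 8.67 kb.

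Cytokine receptors carried peaks on either side. Ifngr1, the ligand-binding chain of the interferon gamma receptor (chr10:19591949-19610229), had 2 downstream of its stop, at 3.44 and 4.35 kb (chr10:19613474-19613873 and chr10:19614381-19614780). They were 0.907 kb apart and lay between Ifngr1 and Il22ra2, whose nearer end was 7.45 kb from the closer of them. Both chains of the type I interferon receptor had 1, Ifnar1 at 12.2 kb downstream (chr16:91522516-91522915), with Ifngr2 24.3 kb on the other side, and Ifnar2 at 18.0 kb upstream (chr16:91354625-91355024). Il21r, the interleukin 21 receptor, had 1 at 6.57 kb upstream (chr7:125596480-125596879), 17.2 kb from the neighbouring receptor gene Il4ra. Il17ra, a chain of the interleukin 17 receptor, had 1 at 8.25 kb (chr6:120454733-120455132). Tgfbr2, a receptor of TGF-beta, had 1 at 2.91 kb upstream of its start (chr9:116178072-116178471), inside the lncRNA gene Gm40582. These 6 receptor genes thus held 7 of the 11 peaks of the list.

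The other 4 genes of the list act downstream of receptors. Smad7, an inhibitor of TGF-beta signalling, had 1 peak at 3.94 kb (chr18:75363231-75363630). Gab2, an adaptor, had 1 at 6.51 kb (chr7:97075046-97075445). Ptpn11, which encodes the phosphatase SHP2, a partner of GAB2, had 1 at 7.00 kb downstream (chr5:121123338-121123737). Socs3, an inhibitor of cytokine receptors, had 1 at 19.5 kb downstream (chr11:117946369-117946768). Ifnar1, Ifnar2, Il17ra and Socs3 fall outside the rule for named genes and are given so that the list is whole.

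The 6 peaks of the granulocyte and monocyte list had a median distance of 3.98 kb, against 6.89 kb for the whole class. This difference was not tested. Prtn3, a granule protease gene next to other serine protease genes, had 1 at 1.72 kb upstream (chr10:79877753-79878152), 2.99 kb from Plppr3 on the other side. Mpo, which encodes myeloperoxidase, had 1 at 3.56 kb upstream (chr11:87790027-87790426), inside the lncRNA gene Gm34064. Csf3r, the receptor of G-CSF, had 1 at 5.58 kb upstream (chr4:126017658-126018057), inside the lncRNA gene Gm32908 and 303.7 kb from the next coding gene, Grik3. Cd33, a lectin of myeloid cells, had 1 at 8.67 kb upstream (chr7:43545893-43546292). All 4 lay on the start side, which held 61.7% of the class peaks with a strand. Over all lists together, 11 peaks were nearest to a start, 9 to a stop, and 11 had no strand. Id1, an inhibitor of bHLH factors, had 2 at 2.19 and 4.39 kb beyond its upper end (chr2:152739398-152739797 and chr2:152741605-152742004), and its strand was not used.

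Of the stem and multipotent progenitor genes, Lmo2 and Nkx2-3 had 2 peaks each, as did Ifngr1, Id1 and Bmf of other lists. Lmo2, a cofactor of blood stem cell factors, had 2 before its lower end, at 10.8 and 11.97 kb (chr2:103946872-103947271 and chr2:103945737-103946136), 1.14 kb apart and both inside the lncRNA gene Gm39896. The next coding gene on that side, Caprin1, was 148.3 kb away. Nkx2-3, a homeobox gene, had 1 on each side, 3.85 kb upstream (chr19:43608274-43608673) and 6.85 kb downstream (chr19:43622543-43622942). Hhex, another homeobox gene, had 1 at 2.27 kb downstream (chr19:37442800-37443199). Egr1, an immediate early factor, had 1 at 5.75 kb (chr18:34855261-34855660), with Reep2 8.00 kb on the other side. Zfp36l2, which encodes an RNA-binding protein that speeds mRNA decay, had 1 at 17.2 kb (chr17:84166482-84166881). Cd34, a surface protein of progenitors, had 1 at 16.4 kb downstream (chr1:194977487-194977886).

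The remaining lists had at most 2 such peaks each. Syk, a tyrosine kinase that acts below the B cell receptor, had 1 at 1.51 kb upstream (chr13:52580905-52581304), and Lyn, a SRC family kinase, had 1 at 12.7 kb (chr4:3804157-3804556). Notch2, a receptor of lineage choice, had 1 at 19.5 kb upstream (chr3:97993882-97994281). Bmf, a pro-apoptotic BCL2 family gene, had 1 on each side, 4.83 kb upstream (chr2:118554312-118554711) and 6.30 kb downstream (chr2:118522255-118522654). Bhlhe40, a repressor of clock genes, had 1 at 1.15 kb (chr6:108659283-108659682), inside the lncRNA gene 0610040F04Rik. Hlf, Dbp, Tef and Nfil3 had 0 peaks of this class. The closest peaks of the class lay 95.6 kb from Hlf (given to Mmd), 301.4 kb from Dbp (given to Kcna7), 103.9 kb from Tef (given to Chadl) and 144.2 kb from Nfil3 (given to Auh).

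Of the 609 coding genes with such a peak, 577 had 1, and 32 (0.148% of all coding genes) had 2 or more. Irf2bp2, which encodes a corepressor that binds IRF2, had the most, with 4 in all, on both sides of it (chr8:126588296-126593986). Upstream of its start they lay at 2.46 and 4.70 kb (chr8:126596244-126596643 and chr8:126598482-126598881), and downstream of its stop at 2.40 and 15.1 kb (chr8:126585702-126586101 and chr8:126573038-126573437). Its neighbours were far, the nearer being Tarbp1, 98.1 kb from the outermost peak. Anxa1, which encodes a phospholipid-binding protein that dampens inflammation, had 3 upstream at 13.3, 19.1 and 19.8 kb. The only stretch of 10 kb with 3 peaks of the class was this one, within 6448 bases, and 25 separate stretches held 2. Pkd2l1, an ion channel gene, had 3 at 8.79, 15.3 and 18.9 kb, on the side of Scd2, a fatty acid desaturase gene. Il1b, the cytokine interleukin 1 beta, had 1 at 2.19 kb upstream (chr2:129373158-129373557), inside its antisense lncRNA gene Il1bos, and 1 at 4.24 kb downstream (chr2:129360134-129360533).

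Further genes with 2 peaks had them on one side or both. G6pc, the catalytic subunit of glucose-6-phosphatase, had 1 at 1.09 kb downstream and 1 at 9.50 kb upstream. Pde6h, a phosphodiesterase subunit of cone cells, had 2 downstream at 1.32 and 16.1 kb. Arpp19, an inhibitor of the phosphatase PP2A, had 2 downstream at 3.31 and 4.71 kb, both also within 6.17 kb of Myo5a. Igip had 2 at 3.39 and 18.7 kb from opposite ends, and the predicted gene Gm4832 had 2 upstream at 1.59 and 12 kb. The closest pair of the class, 0.558 kb between centres, lay downstream of Ffar3, a receptor for short-chain fatty acids, at 11.4 and 12 kb, between it and its relative Ffar2. Pairs 0.647 and 1.06 kb apart lay downstream of Auh and upstream of Morf4l1.

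The share of these peaks with another peak within 5 kb did not differ past the threshold from that of the rest of the list. Of the 645, 47 had another peak of any class within 5 kb (7.29%, 5.40 to 9.57%), against 188 of 2508 other peaks (7.496%, 6.496 to 8.60%; Fisher's exact p = 0.933). Within 10 kb the order turned, 12.2% against 10.9% (Fisher's exact p = 0.363). The median distance to the next peak, which was not tested, was 98.7 kb, against 106.2 kb for the others. Their place in the file, whose line order the sources used here do not explain, was compared too. The first 10% of the lines held 66 of them, 10.2% (8.00 to 12.8%), against 9.97% of the other peaks (Fisher's exact p = 0.826), and over 10 equal stretches of the file the class ran from 15.6 to 27.0% of the lines.

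Peaks of the class were few on X, and no autosome departed from its territory past the threshold. Chromosome X held 4 where its territory would give 42.2, which is 0.0949 times that number (exact binomial p = 1.00e-12 after adjustment over 20 chromosomes), or 0.171 per Mb (0.0465 to 0.437). They included 1 at 2.63 kb upstream of Atrx, a chromatin remodeller gene, and 2 at 6.89 and 3.96 kb from Atp7a and Tlr13, 4.26 kb apart in the gap between these genes. The X share of the class, 0.620% (0.169 to 1.58%), did not differ past the threshold from that of the other peaks, 0.837% (0.519 to 1.28%; Fisher's exact p = 0.803). Among the autosomes the density ran from 1.25 per Mb on chromosome 7 to 2.64 on chromosome 19. With 1 peak kept per run of peaks within 5 kb, chromosome 11 also passed (exact binomial adjusted p = 0.0457), and with coding genes in place of territory as background, chromosome 7 did (ratio 0.628, exact binomial adjusted p = 0.0182). The number of X copies per cell was not analysed here and its part in the low count was not tested.

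**Figure D5:**
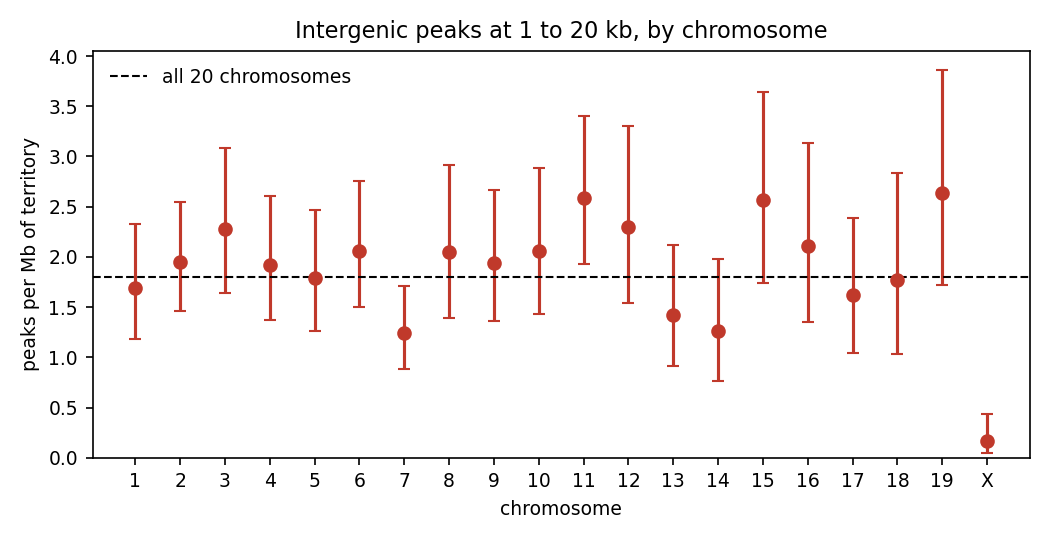
Intergenic peaks at 1 to 20 kb per Mb of territory (vertical axis) on each autosome and X; points are densities, error bars 95% exact Poisson intervals, and the dashed line is the density over all 20 chromosomes, 1.80. Chromosome X, at 0.171, lies under every autosome, the lowest of which is chromosome 7 at 1.25.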

How the data were processed

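The authors deposited for the FLAG-HLF library 3153 intervals as bare positions, with no header and no score or other measured unit. The tools, per the submitters' processing notes, were MACS2, bedtools and Bowtie2, and the build was GRCm38 (mm10). No role or version is stated. Whether the GFP library served as background, and the peak threshold, are not stated in the labels. Every interval is 400 bases wide. Coordinates are printed from 1.

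Gene bounds came from RefSeq (GRCm38.p6, 49997 genes, 21900 coding, 21631 of them on the autosomes and X), and strand from the RefSeq promoter table, which matched 17274 coding genes. A peak belongs to the coding gene whose end is nearest its centre (start plus 200 bases). Territory was counted base by base, and no base was left out for how well reads can be placed on it. Shares were tested with two-sided exact binomial tests and Fisher's exact test at 0.05, with 95% Clopper-Pearson or Poisson intervals and Benjamini-Hochberg adjustment. The code was tested on simulated positions.

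Members, lists and tests were chosen with earlier results of these data known. The gap lengths, arrangement of genes and lncRNA classes were added after the data were seen. Up to 6 genes per list, 10 genes with the most peaks, the members at the limits and in crowded stretches, and Hlf, Dbp, Tef and Nfil3 were named by rule. Genome sequence was not used here, so the planned motif test over all peaks was not run. Of the list symbols, 1 was not matched. Tests ran in scipy 1.17.1 and numpy 2.4.6 under Python 3.11.15, tables in pandas 2.3.3, and figures in matplotlib 3.10.9. The gene of 1 peak on chromosome X is not reported here.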

Additional observations from a re-analysis of the deposited data

How the results depend on the processing

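The 11 results were recomputed under 58 alternatives. Of these, 44 left the direction and the side of the threshold as they were, or moved a count by at most 1.5 times. With noncoding genes in the gene set, the density ratio was 1.03 (exact binomial p = 0.368), and over the other 10 alternatives it ran from 1.26 (gaps over 40 kb) to 1.64 (upper limit 10 kb). In gaps over 40 kb, the share at 1 to 5 kb was 25.3%. The start side share was 58.9% in the last 1577 lines and 52.0% in tandem gaps. Inside lncRNA genes lay 12.1% in the last 1577 lines (11.05% of territory), and 1.085% when predicted names were left out (0.853% of territory). Inside noncoding genes lay 19.2% in the first 1576 lines, past the threshold. In 5 alternatives the direction turned, and neither the reported value nor the alternative passed. Inside noncoding genes these were 1.24% against 1.74% without predicted names and 12.7% against 13.4% in the last 1577 lines. For another peak within reach they were 12.2% against 10.9% within 10 kb, and 5.90% against 3.90% in the last 1577 lines. For the first 10% of the lines it was 10.2% against 11.1% of intragenic peaks. The cause of these changes was not tested. Chromosomes past the threshold numbered 1, and 2 under either alternative. List genes with a peak numbered from 18 to 33. The alternatives on motifs were not run. No paired analysis was possible because each group has 1 library, so no library could be left out either. Read depth is unknown, and the intervals cover counting error only.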
